A study of Homo sapiens with 15 samples.

Results

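The genes of transforming growth factor beta (TGF-beta), bone morphogenetic protein (BMP) and activin signalling were described in sorted fractions of the human ovarian cancer line PEO1. A list of 45 genes was set by name: ligands, latency proteins, receptors, inhibitors, SMAD transcription factors, nuclear corepressors and the ID target genes. Of these, 44 were measured among the 19775 genes of the arrays, through 123 of 41091 single-gene probe sets, and BMPR1A was not analysed here. The genes were named for their role in the pathway, with earlier results of these data known.

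Ligands of this family bind pairs of type II and type I serine/threonine kinase receptors at the cell surface. The type I receptor phosphorylates receptor SMADs (SMAD2 and SMAD3 for TGF-beta and activins, SMAD1, SMAD5 and SMAD9 for BMPs), which join SMAD4 and act on genes in the nucleus. Secreted traps, a decoy receptor, the inhibitory SMADs (SMAD6 and SMAD7) and the corepressors SKI and SKIL hold the signal in check. In ovarian and other epithelial cancers the pathway is known for restraining growth in some settings and for promoting epithelial-mesenchymal transition in others.

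PEO1 is an established cell line, kept in RPMI-1640 medium with 10% fetal bovine serum. Cells of the parental culture were detached with trypsin, stained for the surface proteins CD90 and CD133 and with a dye for dead cells, and sorted into CD90+/CD133+, CD90+/CD133- and CD90-/CD133- fractions, and their total RNA was hybridised to whole-genome expression arrays. There were 5 arrays per fraction (15 in all), with replicate numbers 1 to 5 in the sample titles, and the methods name 5 biological replicates for the CD90+/CD133- and CD90-/CD133- fractions. The design text speaks of triplicates, the numbers in the titles were used, and nothing in the sources describes the replicates of the CD90+/CD133+ fraction. The labels name no treatment or allele that differed between the fractions, so each is a sorted part of 1 line and is defined by 2 surface proteins only.

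THY1, which encodes CD90, had intensities of 728 to 2171 in CD90+/CD133+ cells, 795 to 1221 in CD90+/CD133- cells and 57.8 to 101 in CD90-/CD133- cells. PROM1, which encodes CD133, was at 429 to 1652 in CD90+/CD133+ cells, 21.5 to 156 in CD90+/CD133- cells and 16 to 44.1 in CD90-/CD133- cells, so both genes followed their labels. Summed intensities of 8 epithelial markers spanned 26561 to 38218 in CD90+/CD133+ cells, 28662 to 38130 in CD90+/CD133- cells and 41882 to 51517 in CD90-/CD133- cells, where KRT8 and KRT18 were higher and EPCAM lower. The 8 fibroblast markers summed to 275.2 to 334.8 in CD90+/CD133+ cells, 255.8 to 289.2 in CD90+/CD133- cells and 347.6 to 413.1 in CD90-/CD133- cells, with LUM, COL3A1 and PDGFRA at the floor of 16 on all 15 arrays. FAP, a fibroblast activation marker, was called lower in both CD90+ fractions, at 31.9 to 41.6 in CD90+/CD133+ cells, 26.5 to 44.5 in CD90+/CD133- cells and 105.6 to 196.7 in CD90-/CD133- cells. The other 7 fibroblast markers were not called in either comparison, and the median log2 fold change of the 8 was 0 in both. The 4 leukocyte markers measured summed to 142.4 to 232.5 in CD90+/CD133+ cells, 159.1 to 217.3 in CD90+/CD133- cells and 110.9 to 135.3 in CD90-/CD133- cells, with PTPRC and MS4A1 at the floor throughout and CD14 called higher in both CD90+ fractions. The 5 endothelial markers stayed between 131.9 and 166.6 on every array, with CDH5 and KDR at the floor. The 4 mesothelial markers summed to 353.9 to 580.0 in CD90+/CD133+ cells, 407.2 to 508.0 in CD90+/CD133- cells and 313.9 to 473.8 in CD90-/CD133- cells. Among them UPK3B was called higher in both CD90+ fractions, at 62.5 to 111.5 in CD90+/CD133+ cells, 74.6 to 127.2 in CD90+/CD133- cells and 27.8 to 61.0 in CD90-/CD133- cells. CALB2 was called lower in both, at 29.6 to 40.1 in CD90+/CD133+ cells, 35.0 to 42.6 in CD90+/CD133- cells and 55.4 to 78.5 in CD90-/CD133- cells. The gap between 3' and 5' control probe sets of ACTB, a sign of RNA quality, averaged 1.70 ± 0.66 in CD90+/CD133+ cells, 2.46 ± 0.56 in CD90+/CD133- cells and 1.84 ± 0.32 in CD90-/CD133- cells on the log2 scale (SD, n = 5 each). The part of these marker and quality differences in the results was not tested.

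All levels below are linear array intensities as normalised by the authors, with values under 16 set to 16, and each gene is read from its brightest probe set. They compare arrays for 1 gene, not 1 gene with another. Values are listed in the order of replicate numbers 1 to 5. Differences are log2 fold changes with their standard error (SE), tested with limma over all 19775 genes, and a gene counts as called at a Benjamini-Hochberg adjusted p under 0.05. Same-numbered arrays deviated together, so the adjusted p with the replicate number as a block is given for each of the 44 genes whose call it changed, and for the other lists as counts. In sorted cells measured in bulk, fewer cells of a type and less RNA per cell cannot be told apart. Both CD90+ fractions were compared with the same 5 CD90-/CD133- arrays, so those comparisons are not independent of each other.

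Of the 44 genes, 8 were higher (18.2%) and 13 lower (29.5%) in CD90+/CD133+ cells than in CD90-/CD133- cells, against 9.57% higher and 10.8% lower over all genes. In CD90+/CD133- cells 10 were higher (22.7%) and 11 lower (25%), against 9.08% higher and 9.88% lower over all genes. With the replicate block the counts were 11 higher and 15 lower for CD90+/CD133+ cells, against 13% higher and 15.2% lower over all genes. They were 10 higher and 14 lower for CD90+/CD133- cells, against 12% higher and 13.6% lower. Many of the genes on the array are dim, and dim genes are seldom called. Among the 9988 genes with a mean intensity of at least 64, which include 31 of the 44, the shares called were 16.8% higher and 16.2% lower in CD90+/CD133+ cells, beside 19.4% higher and 32.3% lower of those 31. For CD90+/CD133- cells they were 15.9% higher and 15.1% lower, beside 25.8% in each direction. The median log2 fold change of the 44 was -0.04 in CD90+/CD133+ cells and 0.02 in CD90+/CD133- cells, and the median over all genes was 0 in both. Its median absolute log2 fold change was 0.42 in CD90+/CD133+ cells and 0.47 in CD90+/CD133- cells, against 0.13 over all genes in each comparison. Among the genes with a mean of at least 64 it was 0.43 for the 31, against 0.26 for all 9988, in CD90+/CD133+ cells, and 0.59 against 0.28 in CD90+/CD133- cells.

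**Figure D1:**
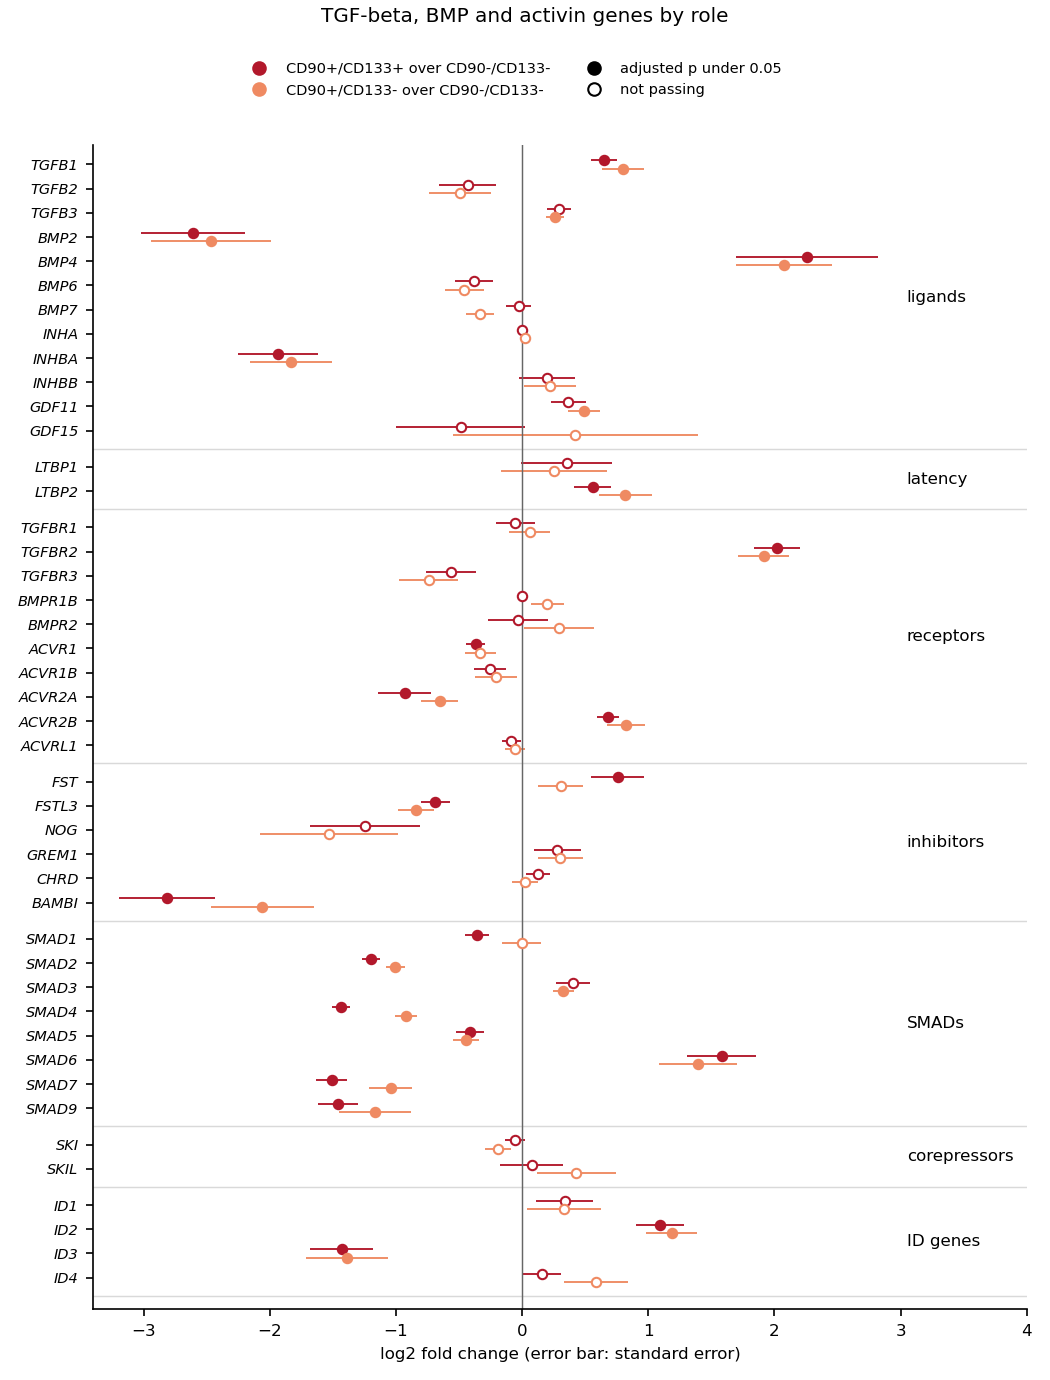
Log2 fold change of each of the 44 measured pathway genes (x axis) by role (y axis), in CD90+/CD133+ cells (dark red) and CD90+/CD133- cells (orange), each over CD90-/CD133- cells. Bars are standard errors and filled points passed an adjusted p under 0.05. BMP4, TGFBR2, SMAD6 and ID2 lie to the right, and BMP2, INHBA, BAMBI, SMAD2, SMAD4, SMAD7 and ID3 to the left, in both comparisons.

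Among the 12 ligands, the BMP genes moved in opposite directions. BMP4, a BMP ligand that acts through SMAD1, SMAD5 and SMAD9, was higher in both CD90+ fractions, while its close relative BMP2 was lower. BMP4 intensities were 97.4, 152, 543, 229 and 798 on the CD90+/CD133+ arrays, 114, 184, 435, 204 and 420.5 on the CD90+/CD133- arrays and 41.2, 63.2, 63.9, 52.2 and 67.6 on the CD90-/CD133- arrays. Each CD90+ array lay above every CD90-/CD133- array, and replicates 3 and 5 were the highest in both CD90+ fractions. BMP4 rose, with log2 fold changes of 2.26 (SE 0.56, adjusted p = 0.0225) in CD90+/CD133+ cells and 2.08 (SE 0.38, adjusted p = 0.00628) in CD90+/CD133- cells. The BMP4 call in CD90+/CD133+ cells was lost without CD90-/CD133- replicate 1 or 4 or without CD90+/CD133+ replicate 3 (log2 fold changes of 1.87 to 2.63, highest adjusted p = 0.0524). BMP2 intensities were 16.1, 21.1, 38.7, 21.6 and 53.2 on the CD90+/CD133+ arrays, 24.7, 16, 48.8, 18.8 and 68.0 on the CD90+/CD133- arrays and 134, 99.4, 219.5, 147 and 299 on the CD90-/CD133- arrays. No CD90+ array reached the lowest CD90-/CD133- array, and the 2 highest arrays of each fraction were replicates 3 and 5. The log2 fold change of BMP2 was -2.61 (SE 0.41, adjusted p = 0.00257) in CD90+/CD133+ cells and -2.47 (SE 0.48, adjusted p = 0.00774) in CD90+/CD133- cells.

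INHBA encodes the subunit that forms activin A. Its intensities were 714, 432, 303, 426 and 213 on the CD90+/CD133+ arrays, 824, 430.2, 369, 416 and 222 on the CD90+/CD133- arrays and 1834, 1549, 1436, 1676 and 1013 on the CD90-/CD133- arrays. The highest CD90+ array, replicate 1 of the CD90+/CD133- fraction, stayed below the lowest CD90-/CD133- array, replicate 5. INHBA fell in both fractions, with log2 fold changes of -1.94 (SE 0.32, adjusted p = 0.0032) in CD90+/CD133+ cells and -1.83 (SE 0.33, adjusted p = 0.00538) in CD90+/CD133- cells, and all 3 of its probe sets were called lower. INHBB, the subunit of activin B, had 2683, 4408, 4788, 4227 and 4818 on the CD90+/CD133+ arrays, 3087, 4459.7, 4578, 5214 and 3793 on the CD90+/CD133- arrays and 2326, 3564, 4424, 3708 and 4235 on the CD90-/CD133- arrays. Here the fractions overlapped almost fully, with replicate 1 lowest in each. The log2 fold change of INHBB was 0.20 (SE 0.22, adjusted p = 0.676) in CD90+/CD133+ cells, which passed once the replicate number was a block (adjusted p = 0.0109, higher in all 5 pairs), and 0.22 (SE 0.20, adjusted p = 0.598) in CD90+/CD133- cells.

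TGFB1 encodes the TGF-beta ligand made by most cell types. It had 64.1, 74.3, 68.1, 63.3 and 78.1 on the CD90+/CD133+ arrays, 92.2, 89.1, 61.3, 91.3 and 58.3 on the CD90+/CD133- arrays and 43.8, 37.2, 52.7, 47.2 and 41.8 on the CD90-/CD133- arrays, low values throughout but with every CD90+ array above every CD90-/CD133- array. TGFB1 was higher, with log2 fold changes of 0.65 (SE 0.10, adjusted p = 0.00232) in CD90+/CD133+ cells and 0.80 (SE 0.17, adjusted p = 0.0112) in CD90+/CD133- cells, and both calls were lost when values under 64 were set to 64. TGFB3, another TGF-beta ligand, had 53.0, 58.2, 71.4, 62.6 and 51.6 on the CD90+/CD133+ arrays, 66.0, 55.8, 55.5, 58.7 and 52.6 on the CD90+/CD133- arrays and 47.9, 46.5, 46.9, 44.7 and 54.7 on the CD90-/CD133- arrays. Replicate 5 of the CD90-/CD133- fraction was above the lowest arrays of both other fractions. TGFB3 passed in CD90+/CD133- cells, at 0.26 (SE 0.072, adjusted p = 0.037), but not with the replicate block (adjusted p = 0.0982), and it kept the call in only 2 of 10 fits with 1 array left out, those without replicate 5 of either fraction (log2 fold changes of 0.21 to 0.31, highest adjusted p = 0.0875). Its log2 fold change in CD90+/CD133+ cells was 0.30 (SE 0.096, adjusted p = 0.0647), which passed without replicate 5 of either fraction (lowest adjusted p = 0.0431).

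GDF11, a ligand of the activin branch, had 139, 148, 160.2, 141 and 113 on the CD90+/CD133+ arrays, 159, 174, 139.9, 152 and 137 on the CD90+/CD133- arrays and 119.8, 113, 134, 85.9 and 95.2 on the CD90-/CD133- arrays. All CD90+/CD133- arrays were above the CD90-/CD133- arrays, and the CD90+/CD133+ arrays overlapped with them through replicate 5. GDF11 rose in CD90+/CD133- cells, with a log2 fold change of 0.49 (SE 0.13, adjusted p = 0.0295), a call lost without CD90+/CD133- replicate 1, 2 or 4 or CD90-/CD133- replicate 2, 4 or 5 (log2 fold changes of 0.40 to 0.56, highest adjusted p = 0.0674). The difference in CD90+/CD133+ cells was 0.37 (SE 0.14, adjusted p = 0.105), and it passed once the replicate number was a block (adjusted p = 0.0414). Of the other ligands, none was called. TGFB2, the third TGF-beta ligand, was at 52.2 to 87.2 in CD90+/CD133+ cells, 49.0 to 94.4 in CD90+/CD133- cells and 66.2 to 134 in CD90-/CD133- cells. BMP6 was at 26.2 to 34.1 in CD90+/CD133+ cells, 23.6 to 33.8 in CD90+/CD133- cells and 29.2 to 47.1 in CD90-/CD133- cells. BMP7, a relative of BMP6, was at 76.1 to 97.8 in CD90+/CD133+ cells, 59.7 to 82.2 in CD90+/CD133- cells and 78.3 to 101 in CD90-/CD133- cells. For BMP7 a dimmer probe set was called lower in both CD90+ fractions (log2 fold changes of -1.47 in CD90+/CD133+ cells and -1.41 in CD90+/CD133- cells), which its brightest probe set did not show. That probe set was at the floor on 8 of 15 arrays, and a further dim one was called lower in CD90+/CD133+ cells (-0.67, adjusted p = 0.0334). INHA, the inhibin alpha subunit, stayed at 16 to 17.1 on all 15 arrays, and GDF15, a stress-induced family member, was at most 40.4 on 13 of them. Replicate 5 had more GDF15 in 2 fractions, with 516 on the CD90+/CD133- array and 143 on the CD90-/CD133- array.

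LTBP2 belongs to the latent TGF-beta binding proteins but, unlike LTBP1, does not bind latent TGF-beta. It had 778, 645, 637, 710.2 and 551 on the CD90+/CD133+ arrays, 928, 791, 969, 875 and 494 on the CD90+/CD133- arrays and 429, 483, 494, 542 and 324 on the CD90-/CD133- arrays. The CD90+/CD133+ arrays were all above the CD90-/CD133- arrays, and CD90+/CD133- replicate 5 lay among the CD90-/CD133- values. LTBP2 was higher, with log2 fold changes of 0.56 (SE 0.15, adjusted p = 0.0295) in CD90+/CD133+ cells and 0.82 (SE 0.21, adjusted p = 0.0281) in CD90+/CD133- cells. The LTBP2 call in CD90+/CD133+ cells was lost without CD90+/CD133+ replicate 1, 2, 3 or 4 or CD90-/CD133- replicate 1 or 2 (0.44 to 0.63, highest adjusted p = 0.071). That in CD90+/CD133- cells was lost without CD90+/CD133- replicate 1, 2, 3 or 4 or CD90-/CD133- replicate 1, 2 or 5 (0.70 to 0.99, highest adjusted p = 0.0673). LTBP1 ranged over 87.4 to 340.4 in CD90+/CD133+ cells, 75.3 to 396 in CD90+/CD133- cells and 85.2 to 166 in CD90-/CD133- cells and was not called.

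Of the 10 receptors measured, TGFBR2 changed most. It encodes the type II receptor that binds TGF-beta, and its intensities were 542, 690.4, 915, 766 and 1093 on the CD90+/CD133+ arrays, 447, 692, 974, 826 and 802 on the CD90+/CD133- arrays and 183, 164, 195, 198 and 226 on the CD90-/CD133- arrays. The lowest CD90+ array was at 447 and the highest CD90-/CD133- array at 226. TGFBR2 rose, with log2 fold changes of 2.02 (SE 0.18, adjusted p = 1.59e-04) in CD90+/CD133+ cells and 1.92 (SE 0.20, adjusted p = 3.98e-04) in CD90+/CD133- cells, which is 4.05-fold in CD90+/CD133+ cells and 3.77-fold in CD90+/CD133- cells. These values come from its bright probe set. Its other probe set was dim, with means of 17.4 in CD90+/CD133+ cells, 18.1 in CD90+/CD133- cells and 23.6 in CD90-/CD133- cells. That probe set was not called, with log2 fold changes of -0.44 in CD90+/CD133+ cells and -0.38 in CD90+/CD133- cells. TGFBR1, the type I partner of TGFBR2, was at 269 to 486 in CD90+/CD133+ cells, 284 to 498 in CD90+/CD133- cells and 311 to 395 in CD90-/CD133- cells and was not called, with log2 fold changes of -0.05 in CD90+/CD133+ cells and 0.06 in CD90+/CD133- cells.

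The activin type II receptors moved apart from each other. ACVR2B had 184, 189, 218, 202 and 251 on the CD90+/CD133+ arrays, 172, 211, 270.2, 211 and 308 on the CD90+/CD133- arrays and 123, 123, 135, 124 and 144 on the CD90-/CD133- arrays, with the lowest CD90+ array at 172 and the highest CD90-/CD133- array at 144. ACVR2B rose, with log2 fold changes of 0.68 (SE 0.09, adjusted p = 0.00103) in CD90+/CD133+ cells and 0.83 (SE 0.15, adjusted p = 0.00598) in CD90+/CD133- cells. ACVR2A, its paralogue, had 89.6, 70.3, 62.0, 66.0 and 43.3 on the CD90+/CD133+ arrays, 94.4, 81.1, 72.0, 76.3 and 69.3 on the CD90+/CD133- arrays and 171, 108, 102, 124 and 120.4 on the CD90-/CD133- arrays. All CD90+ arrays were below the lowest CD90-/CD133- array, replicate 1 was the highest of each fraction, and replicate 5 was the lowest of both CD90+ fractions. ACVR2A fell, with log2 fold changes of -0.93 (SE 0.21, adjusted p = 0.014) in CD90+/CD133+ cells and -0.65 (SE 0.15, adjusted p = 0.0163) in CD90+/CD133- cells.

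TGFBR3 encodes betaglycan, a coreceptor that presents TGF-beta and inhibins. It had 102, 69.5, 111, 68.0 and 108 on the CD90+/CD133+ arrays, 118, 56.7, 95.2, 60.9 and 81.6 on the CD90+/CD133- arrays and 179.6, 118, 151, 112 and 115 on the CD90-/CD133- arrays, lower in the CD90+ array of all 5 pairs in both comparisons, with replicate 1 high in the CD90+/CD133- and CD90-/CD133- fractions. The log2 fold changes were -0.56 (SE 0.20, adjusted p = 0.0892) in CD90+/CD133+ cells and -0.74 (SE 0.23, adjusted p = 0.0586) in CD90+/CD133- cells. They passed once the replicate number was a block (adjusted p = 0.0368 in CD90+/CD133+ cells and 0.00915 in CD90+/CD133- cells), and the call in CD90+/CD133- cells was also made without CD90+/CD133- replicate 1 (adjusted p = 0.0253). A dimmer TGFBR3 probe set was called lower in CD90+/CD133+ cells without the block (-0.92, adjusted p = 0.0396). ACVR1, a type I receptor of the BMP branch, had 189, 175, 173, 162 and 198 on the CD90+/CD133+ arrays, 171, 149, 230.4, 167 and 212 on the CD90+/CD133- arrays and 242, 229, 254, 231 and 201 on the CD90-/CD133- arrays. Its CD90+/CD133+ arrays lay just below the CD90-/CD133- arrays, while the CD90+/CD133- arrays overlapped with them. ACVR1 fell in CD90+/CD133+ cells, with a log2 fold change of -0.37 (SE 0.073, adjusted p = 0.00818), and in CD90+/CD133- cells the difference was -0.33 (SE 0.13, adjusted p = 0.113), which passed only without CD90+/CD133- replicate 3 among single arrays left out (adjusted p = 0.0436).

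ACVR1B, the type I receptor of activins, had 266, 287, 344, 299 and 362 on the CD90+/CD133+ arrays, 245, 301, 308, 334 and 445 on the CD90+/CD133- arrays and 317, 349, 401, 332 and 466 on the CD90-/CD133- arrays. The fractions overlapped, yet the CD90+/CD133+ array was the lower one in each of the 5 pairs. Its log2 fold change in CD90+/CD133+ cells was -0.25 (SE 0.13, adjusted p = 0.23), and it passed once the replicate number was a block (adjusted p = 0.00821). In CD90+/CD133- cells it was -0.20 (SE 0.17, adjusted p = 0.534). A dimmer ACVR1B probe set was called lower in CD90+/CD133+ cells without the block (-0.29, adjusted p = 0.0308). The other receptors were not called. BMPR2, the BMP type II receptor, was at 221 to 469 in CD90+/CD133+ cells, 225 to 571 in CD90+/CD133- cells and 227 to 454 in CD90-/CD133- cells, and ACVRL1, a type I receptor best known from endothelium, at 32.1 to 40.7 on all arrays. BMPR1B, a BMP type I receptor, was at the floor on 12 of 15 arrays and reached 25.6 at most.

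**Figure D2:**
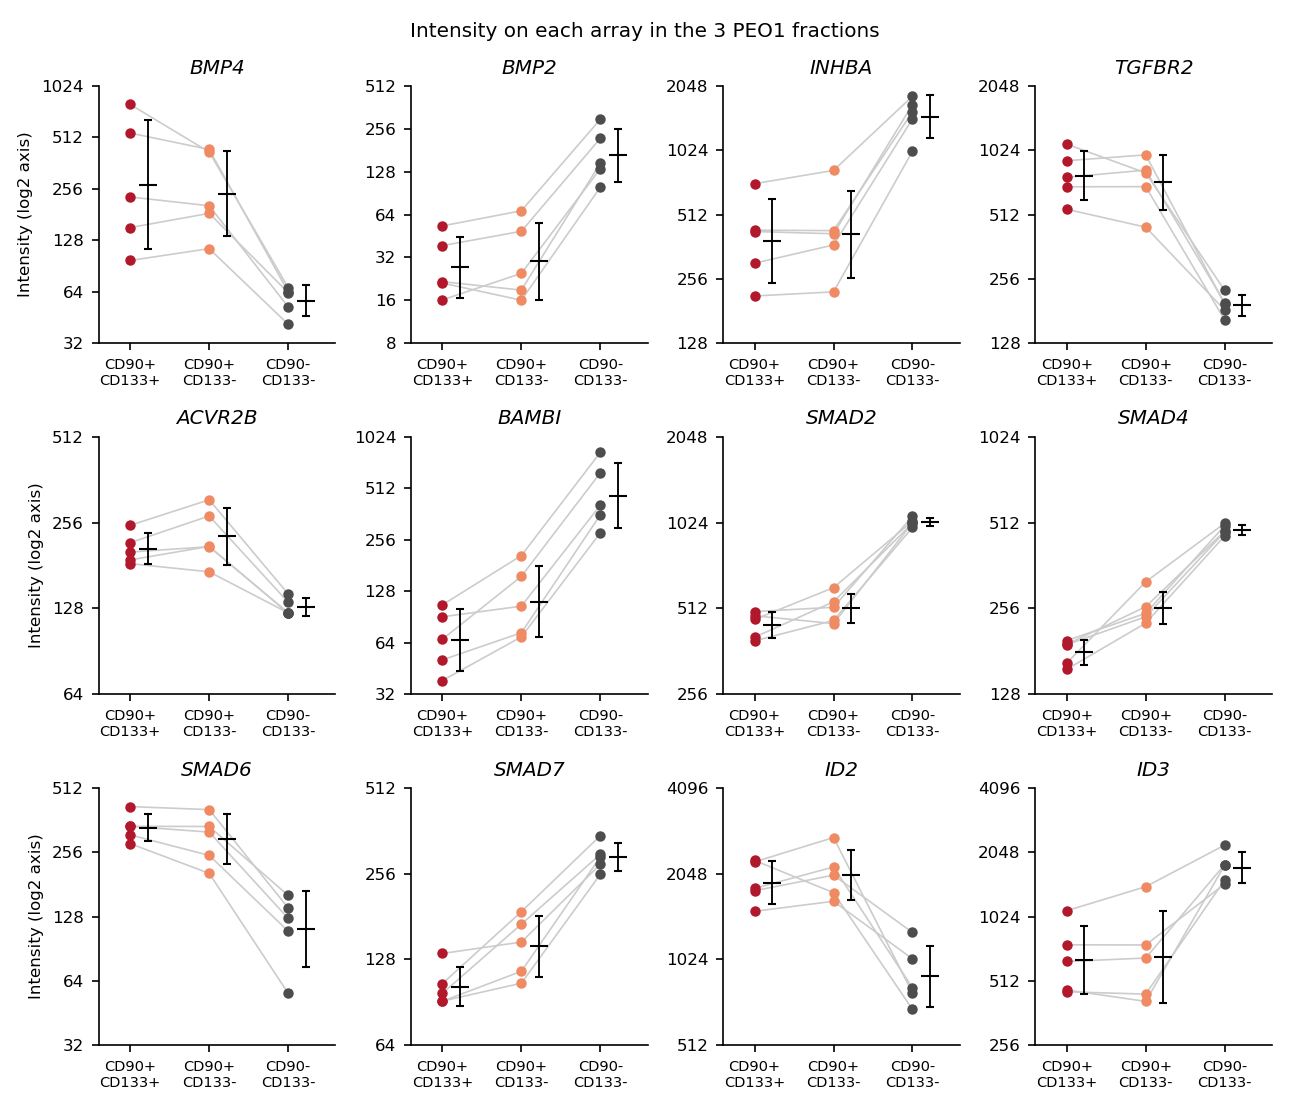
Intensity on each array (y axes, log2 scale) of 12 pathway genes in the CD90+/CD133+, CD90+/CD133- and CD90-/CD133- fractions (x axes). Points are arrays, grey lines join arrays with the same replicate number, and black marks are the mean ± SD of the log2 values (n = 5 arrays per fraction). For each gene shown, no array of a CD90+ fraction overlaps with the CD90-/CD133- arrays, and for SMAD4 the CD90+/CD133+ arrays (156 to 197) also lie below the CD90+/CD133- arrays (227 to 317).

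Among the 6 inhibitors, BAMBI was the furthest from CD90-/CD133- cells. BAMBI encodes a decoy receptor that resembles type I receptors but has no kinase, and its intensities were 90.6, 38.4, 67.0, 50.7 and 106 on the CD90+/CD133+ arrays, 105, 69.1, 156, 73.1 and 207 on the CD90+/CD133- arrays and 408, 281, 631, 358 and 831 on the CD90-/CD133- arrays. Each fraction had replicate 5 as its highest and replicate 2 as its lowest array, and the lowest CD90-/CD133- array was above every CD90+ array. BAMBI fell, with log2 fold changes of -2.81 (SE 0.38, adjusted p = 0.00116) in CD90+/CD133+ cells and -2.06 (SE 0.41, adjusted p = 0.00861) in CD90+/CD133- cells, which is 7.02-fold in CD90+/CD133+ cells and 4.17-fold in CD90+/CD133- cells. It was read from 1 probe set.

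The activin traps follistatin and follistatin-like 3 differed from each other. FSTL3 had 49.7, 43.5, 52.6, 52.4 and 45.3 on the CD90+/CD133+ arrays, 47.1, 43.9, 40.2, 35.4 and 54.6 on the CD90+/CD133- arrays and 99.9, 81.4, 65.7, 71.2 and 77.0 on the CD90-/CD133- arrays, all dim, with every CD90+ array below the lowest CD90-/CD133- array. FSTL3 was lower, with log2 fold changes of -0.69 (SE 0.11, adjusted p = 0.00327) in CD90+/CD133+ cells and -0.84 (SE 0.14, adjusted p = 0.00437) in CD90+/CD133- cells, and both calls were lost with values under 64 set to 64. FST had 150.3, 79.1, 68.1, 70.6 and 73.5 on the CD90+/CD133+ arrays, 97.2, 57.2, 55.0, 59.3 and 48.4 on the CD90+/CD133- arrays and 55.1, 49.96, 49.8, 49.8 and 44.6 on the CD90-/CD133- arrays. CD90+/CD133+ replicate 1 stood far above its fraction, CD90+/CD133- replicate 1 came next, and the CD90+/CD133+ arrays were all above the CD90-/CD133- arrays. FST was higher in CD90+/CD133+ cells, with a log2 fold change of 0.76 (SE 0.21, adjusted p = 0.0367), and without the outlying array the log2 fold change was 0.55 (adjusted p = 0.00129). The call was lost without CD90+/CD133+ replicate 2 or 5 or CD90-/CD133- replicate 1, 2, 3, 4 or 5, 1 at a time (0.55 to 0.83, highest adjusted p = 0.0777). The FST difference in CD90+/CD133- cells was 0.30 (SE 0.17, adjusted p = 0.311).

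NOG encodes noggin, a secreted BMP antagonist. It had 118, 42.5, 59.6, 34.3 and 42.1 on the CD90+/CD133+ arrays, 132, 27.1, 60.9, 24.9 and 29.4 on the CD90+/CD133- arrays and 277, 130.1, 76.0, 129 and 91.3 on the CD90-/CD133- arrays. Replicate 1 was the highest of each fraction and lay above several arrays of the others, and the CD90+ array was lower in all 5 pairs. The log2 fold changes of NOG were -1.24 (SE 0.44, adjusted p = 0.0837) in CD90+/CD133+ cells and -1.53 (SE 0.55, adjusted p = 0.0916) in CD90+/CD133- cells. Both passed once the replicate number was a block (adjusted p = 0.026 in CD90+/CD133+ cells and 0.0442 in CD90+/CD133- cells). Both were also called without replicate 1 of the CD90+ fraction, at an adjusted p of 0.0262 in CD90+/CD133+ cells and 0.0202 in CD90+/CD133- cells. The BMP antagonists CHRD and GREM1 were not called. Of 2 CHRD probe sets, 1 was called higher in CD90+/CD133+ cells when all probe sets were tested, with a log2 fold change of 0.13 for each. CHRD lay between 21.6 and 32.0 on all arrays, and GREM1 was at the floor on every CD90-/CD133- array and was highest on replicate 1 of the CD90+ fractions, with 32.2 in CD90+/CD133+ cells and 31.2 in CD90+/CD133- cells.

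The SMAD genes were the role with the most calls. Of 8, 6 were lower and 1 higher in CD90+/CD133+ cells, with a median log2 fold change of -0.81. In CD90+/CD133- cells 5 were lower and 2 higher, with a median of -0.68. Over all genes 10.8% were lower and 9.57% higher in CD90+/CD133+ cells, and 9.88% lower and 9.08% higher in CD90+/CD133- cells. SMAD2, SMAD4 and SMAD7, lower in both, are chromosome neighbours in a stretch where 20 or 21 of 30 genes were called lower. Their calls are therefore not independent of each other. SMAD4, the partner shared by both branches, had 191, 191, 156, 197 and 164 on the CD90+/CD133+ arrays, 259, 239, 227, 246 and 317 on the CD90+/CD133- arrays and 478, 475, 459.6, 499 and 509.5 on the CD90-/CD133- arrays. Its 3 fractions did not overlap, with 156 to 197 in CD90+/CD133+ cells, 227 to 317 in CD90+/CD133- cells and 459.6 to 509.5 in CD90-/CD133- cells. SMAD4 fell, with log2 fold changes of -1.43 (SE 0.07, adjusted p = 1.06e-05) in CD90+/CD133+ cells and -0.92 (SE 0.085, adjusted p = 2.30e-04) in CD90+/CD133- cells. Of its 4 probe sets that rose above the floor, all 4 were below CD90-/CD133- cells, 3 called in CD90+/CD133+ cells and 2 in CD90+/CD133- cells. SMAD2, which carries the TGF-beta and activin signal, had 482, 394, 499, 405 and 468 on the CD90+/CD133+ arrays, 453, 464, 516, 539.9 and 605 on the CD90+/CD133- arrays and 1022, 985, 1079, 1019.9 and 1037 on the CD90-/CD133- arrays. The highest CD90+ array was at 605 and the lowest CD90-/CD133- array at 985. SMAD2 fell, with log2 fold changes of -1.20 (SE 0.07, adjusted p = 2.35e-05) in CD90+/CD133+ cells and -1.004 (SE 0.077, adjusted p = 9.73e-05) in CD90+/CD133- cells, with all 6 probe sets below and 5 of them called in each comparison. SMAD3, the other SMAD of that branch, did not follow it. It had 571, 769, 771, 750.0 and 993 on the CD90+/CD133+ arrays, 629, 711, 829, 748 and 694 on the CD90+/CD133- arrays and 499, 580.0, 568, 624 and 599 on the CD90-/CD133- arrays, all CD90+/CD133- arrays above the CD90-/CD133- arrays and CD90+/CD133+ replicate 1 among them. SMAD3 rose in CD90+/CD133- cells, with a log2 fold change of 0.33 (SE 0.083, adjusted p = 0.0254). This call was lost without CD90-/CD133- replicate 2 or 3 or CD90+/CD133- replicate 2 or 4 (0.28 to 0.38, highest adjusted p = 0.062), and 2 of its 4 probe sets were below CD90-/CD133- cells. The SMAD3 difference in CD90+/CD133+ cells was 0.41 (SE 0.13, adjusted p = 0.0686), which passed once the replicate number was a block (adjusted p = 0.0315) and without CD90+/CD133+ replicate 1 (adjusted p = 0.011).

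The SMADs of the BMP branch were lower or not called. SMAD9 had 32.9, 26.2, 22.7, 37.7 and 26.2 on the CD90+/CD133+ arrays, 29.8, 30.8, 22.3, 37.2 and 70.4 on the CD90+/CD133- arrays and 69.4, 82.2, 87.4, 65.3 and 94.1 on the CD90-/CD133- arrays. Every CD90+ array was below the CD90-/CD133- arrays except CD90+/CD133- replicate 5, at 70.4. SMAD9 fell, with log2 fold changes of -1.46 (SE 0.16, adjusted p = 3.96e-04) in CD90+/CD133+ cells and -1.17 (SE 0.29, adjusted p = 0.0227) in CD90+/CD133- cells. Its call in CD90+/CD133- cells was lost without CD90-/CD133- replicate 2, 3 or 5 or CD90+/CD133- replicate 2 (-1.42 to -1.003, highest adjusted p = 0.0549), and both calls were lost with values under 64 set to 64. The other SMAD9 probe set was not called, with log2 fold changes of -0.002 in CD90+/CD133+ cells and 0.10 in CD90+/CD133- cells. SMAD5 had 393, 333, 315, 337 and 432 on the CD90+/CD133+ arrays, 329.6, 299, 377, 365 and 398 on the CD90+/CD133- arrays and 407, 505, 471, 469 and 557 on the CD90-/CD133- arrays, with CD90-/CD133- replicate 1 as the lowest of its fraction, below CD90+/CD133+ replicate 5. SMAD5 was lower, with log2 fold changes of -0.41 (SE 0.11, adjusted p = 0.0289) in CD90+/CD133+ cells and -0.45 (SE 0.10, adjusted p = 0.0166) in CD90+/CD133- cells. Its call in CD90+/CD133+ cells was lost without CD90+/CD133+ replicate 2, 3 or 4 or CD90-/CD133- replicate 2, 3, 4 or 5 (-0.48 to -0.36, highest adjusted p = 0.0708). SMAD1 had 228, 233, 217, 250.4 and 276 on the CD90+/CD133+ arrays, 220.2, 276, 347, 328 and 392 on the CD90+/CD133- arrays and 293, 300.3, 362, 268 and 321 on the CD90-/CD133- arrays, and the groups overlapped in both comparisons. SMAD1 was lower in CD90+/CD133+ cells, with a log2 fold change of -0.36 (SE 0.092, adjusted p = 0.0254), but not with the replicate block (adjusted p = 0.0665) and not without CD90+/CD133+ replicate 1, 2 or 3 or CD90-/CD133- replicate 2 or 5 (-0.41 to -0.30, highest adjusted p = 0.061). Its difference in CD90+/CD133- cells was 0.00 (SE 0.16, adjusted p = 1).

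The inhibitory SMADs moved in opposite directions. SMAD6, which mainly blocks BMP signalling, had 281, 308, 339, 339 and 419 on the CD90+/CD133+ arrays, 204, 248, 338, 318 and 406 on the CD90+/CD133- arrays and 55.9, 109, 161, 126 and 140.5 on the CD90-/CD133- arrays. CD90-/CD133- replicate 1 was the lowest of the 15 arrays, and the highest CD90-/CD133- array stayed below all CD90+ arrays. SMAD6 rose, with log2 fold changes of 1.58 (SE 0.27, adjusted p = 0.00419) in CD90+/CD133+ cells and 1.40 (SE 0.31, adjusted p = 0.0145) in CD90+/CD133- cells. All 4 of its probe sets were above CD90-/CD133- cells, but only 1 was called in CD90+/CD133+ cells and 2 in CD90+/CD133- cells. SMAD7, which blocks both branches, had 134, 91.3, 97.3, 91.2 and 105 on the CD90+/CD133+ arrays, 147, 106, 170.1, 116 and 188 on the CD90+/CD133- arrays and 276, 255, 299, 293 and 348 on the CD90-/CD133- arrays, with no CD90+ array above 188 and no CD90-/CD133- array below 255. SMAD7 fell, with log2 fold changes of -1.51 (SE 0.12, adjusted p = 9.37e-05) in CD90+/CD133+ cells and -1.04 (SE 0.17, adjusted p = 0.00359) in CD90+/CD133- cells.

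The promoters of SMAD6 and SMAD7 are printed because SMAD proteins are known to act on both genes, which here went opposite ways. They come from RefSeq on GRCh38.p14, run from 250 bases before the start of the gene to 50 bases after it, 5′ to 3′ on the gene's strand, and capitals mark the short SMAD element GTCT read on either strand. The SMAD6 promoter lies at chr15:66701986-66702285 on the plus strand, and the SMAD7 promoter at chr18:48950916-48951215 on the minus strand.
SMAD6: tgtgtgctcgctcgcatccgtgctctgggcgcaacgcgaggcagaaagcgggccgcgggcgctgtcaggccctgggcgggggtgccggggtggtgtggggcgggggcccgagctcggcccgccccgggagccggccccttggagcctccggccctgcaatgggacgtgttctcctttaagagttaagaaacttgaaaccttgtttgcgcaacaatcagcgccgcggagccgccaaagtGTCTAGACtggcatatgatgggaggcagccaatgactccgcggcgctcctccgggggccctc
SMAD7: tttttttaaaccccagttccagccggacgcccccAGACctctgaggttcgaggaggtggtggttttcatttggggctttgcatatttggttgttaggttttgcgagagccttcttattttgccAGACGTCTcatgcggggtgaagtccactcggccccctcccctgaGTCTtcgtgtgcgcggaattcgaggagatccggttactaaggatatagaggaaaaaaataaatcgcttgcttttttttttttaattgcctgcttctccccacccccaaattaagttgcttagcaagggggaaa
The SMAD6 promoter held the palindrome GTCTAGAC, 2 short elements back to back, with its first base at -12 from the start, and no other capitals. That palindrome occurred in 55 of 27303 gene promoters (0.201%), and among the 40 pathway genes matched to a promoter SMAD6 was the only one. In the window printed, the SMAD7 promoter held 4 short elements and no palindrome. These counts rest on 1 listed promoter per gene, while 13 of the pathway genes had several. Over all listed promoters of the pathway genes, the palindrome was still found for 1 gene. Bases outside these windows were not searched, so SMAD7 may hold the palindrome elsewhere. A short element was common, in 84.1% of all promoters and 33 of the 40. The GC-rich element GGCGCC, searched on both strands, stood in 19.0% of all promoters and in 15 of the 40, but in neither of these. A match to these letters is a description of the sequence, and binding was not measured.

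The corepressors SKI and SKIL bind SMAD complexes and silence their targets. SKI had 612, 613, 554, 564 and 511 on the CD90+/CD133+ arrays, 612, 525, 494, 559 and 424 on the CD90+/CD133- arrays and 654, 616, 585, 610.5 and 506 on the CD90-/CD133- arrays. SKIL had 1200.4, 1342, 1472, 1363 and 1607 on the CD90+/CD133+ arrays, 1099, 1632, 1963, 1897 and 2666 on the CD90+/CD133- arrays and 785, 1207, 1493, 1236 and 2286 on the CD90-/CD133- arrays. Both genes overlapped between all fractions, and in CD90+/CD133- cells SKI was lower and SKIL higher in all 5 pairs. There SKI had a log2 fold change of -0.19 (SE 0.11, adjusted p = 0.294) and passed once the replicate number was a block (adjusted p = 0.0169). SKIL had 0.43 (SE 0.32, adjusted p = 0.464) and likewise passed with the block (adjusted p = 0.0114). In CD90+/CD133+ cells the log2 fold change was -0.06 for SKI and 0.08 for SKIL, and neither passed.

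The ID genes encode helix-loop-helix proteins that bind partners but not DNA, and they are direct targets of BMP signalling. They did not move together. ID2 had 2280.1, 1511, 1819, 1784 and 2253 on the CD90+/CD133+ arrays, 1756, 1638, 2162, 2024 and 2744 on the CD90+/CD133- arrays and 683, 1028, 813, 1272 and 781 on the CD90-/CD133- arrays. The highest CD90-/CD133- array, replicate 4, was below every CD90+ array. ID2 rose, with log2 fold changes of 1.09 (SE 0.19, adjusted p = 0.00414) in CD90+/CD133+ cells and 1.19 (SE 0.20, adjusted p = 0.00415) in CD90+/CD133- cells, and both of its probe sets were called. ID3 had 755, 455, 630.3, 464 and 1090.3 on the CD90+/CD133+ arrays, 753, 443, 654, 409.8 and 1412 on the CD90+/CD133- arrays and 1453, 1516, 1792, 1779 and 2212 on the CD90-/CD133- arrays. The CD90+ arrays were spread widely, with replicate 5 the highest in each fraction, but none reached the CD90-/CD133- arrays. ID3 fell, with log2 fold changes of -1.43 (SE 0.25, adjusted p = 0.00445) in CD90+/CD133+ cells and -1.39 (SE 0.33, adjusted p = 0.0193) in CD90+/CD133- cells. ID1 was at 4381 to 6511 in CD90+/CD133+ cells, 3622 to 8568 in CD90+/CD133- cells and 2515 to 5918 in CD90-/CD133- cells, and its log2 fold changes of 0.34 in CD90+/CD133+ cells and 0.33 in CD90+/CD133- cells did not pass. ID4 was at 376 to 522 in CD90+/CD133+ cells, 500.1 to 1122 in CD90+/CD133- cells and 353 to 581 in CD90-/CD133- cells and did not pass either, with log2 fold changes of 0.16 in CD90+/CD133+ cells and 0.59 in CD90+/CD133- cells, and its highest array by far was CD90+/CD133- replicate 5. A dim ID4 probe set averaged 26.1 in CD90+/CD133+ cells, 46.9 in CD90+/CD133- cells and 19.2 in CD90-/CD133- cells, and it was called higher in CD90+/CD133- cells (1.29, adjusted p = 0.0279).

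The promoters of ID2 and ID3 are shown because these targets of the same signal were called in opposite directions, with the source, length and capitals as for the SMAD genes. The ID2 promoter lies at chr2:8681806-8682105 on the plus strand, and the ID3 promoter at chr1:23559452-23559751 on the minus strand.
ID2: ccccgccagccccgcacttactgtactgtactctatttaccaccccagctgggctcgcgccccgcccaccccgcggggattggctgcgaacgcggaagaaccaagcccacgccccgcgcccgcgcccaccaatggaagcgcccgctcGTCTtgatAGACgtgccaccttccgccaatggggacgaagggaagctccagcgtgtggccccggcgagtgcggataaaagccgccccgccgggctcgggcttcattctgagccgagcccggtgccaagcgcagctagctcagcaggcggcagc
ID3: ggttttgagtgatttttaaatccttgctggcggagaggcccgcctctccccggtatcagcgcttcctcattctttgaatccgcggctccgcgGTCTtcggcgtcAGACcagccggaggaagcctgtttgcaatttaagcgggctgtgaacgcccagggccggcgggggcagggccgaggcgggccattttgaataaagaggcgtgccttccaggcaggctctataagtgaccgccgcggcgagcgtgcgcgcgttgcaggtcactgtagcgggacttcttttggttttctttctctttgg
Each held 2 short elements and neither held the palindrome or the GC-rich element, so in these 300 bases the counts of the 3 motifs were equal for ID2 and ID3.

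Leaving out both arrays of 1 replicate number cost more calls than leaving out single arrays. In CD90+/CD133- cells, 16 of 21 calls held with any single array left out and 10 also with any replicate number left out: BMP4, INHBA, TGFBR2, ACVR2B, FSTL3, BAMBI, SMAD2, SMAD4, SMAD7 and ID2. Among genes that kept their call without any single array, TGFB1 and SMAD6 lost it without replicate 2 or 4, BMP2 without replicate 4 (adjusted p = 0.0501), ACVR2A without replicate 2, 4 or 5, SMAD5 without replicate 2, 3 or 4, and ID3 without replicate 1, 2, 3 or 4. The highest adjusted p among these was 0.0917. For CD90+/CD133+ cells, 16 of 21 held with any single array left out and 14 also with any number left out: TGFB1, BMP2, INHBA, TGFBR2, ACVR2B, FSTL3, BAMBI, SMAD2, SMAD4, SMAD6, SMAD7, SMAD9, ID2 and ID3. ACVR1 was lost without replicate 2 (adjusted p = 0.0551) and ACVR2A without replicate 2 or 4 (highest adjusted p = 0.0734). Calls over all genes also fell, to 1061 higher and 1041 lower for CD90+/CD133- cells without replicate 4, against 1796 higher and 1953 lower with all arrays. No direction of a called gene turned in any of these fits.

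Few genes were called between the CD90+ fractions. In CD90+/CD133+ against CD90+/CD133- cells, limma called 0 of the 44 genes, with or without the replicate block, against 10 of all genes (0.0506%) and 19 with the block (0.0961%). PROM1, the gene of the marker that separates these fractions, was not called either, with a log2 fold change of 4.38 (SE 0.63, adjusted p = 0.0703), so an uncalled gene here may still differ widely. At an unadjusted p under 0.05 there were 4 of 44 (9.09%), against 11.9% of all genes, and the methods' t-test called 0 of the 44 after adjustment. Those 4 were SMAD4, BMP7, SMAD7 and SMAD1. SMAD4 was lower on all 5 CD90+/CD133+ arrays than on any CD90+/CD133- array, with a log2 fold change of -0.51 (SE 0.10, adjusted p = 0.128). It was called when all 3 fractions shared 1 fit (adjusted p = 0.0391), also with the replicate block (adjusted p = 0.0208). BAMBI, lower in the CD90+/CD133+ array of all 5 pairs at -0.75 (SE 0.40, adjusted p = 0.524), was called only in that last fit (adjusted p = 0.0301). Over all genes the shared fit called 51 higher and 44 lower, and 455 higher and 457 lower with the block. The log2 fold change was -0.47 (SE 0.18, adjusted p = 0.361) for SMAD7, -0.35 (SE 0.15, adjusted p = 0.41) for SMAD1 and 0.31 (SE 0.11, adjusted p = 0.295) for BMP7. The 95% interval of the difference was -1.32 to 1.68 for BMP4, -0.47 to 0.68 for TGFBR2, -1.04 to 0.83 for INHBA and -0.93 to 0.84 for ID3, each of which includes 0.

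Some of these genes lie among neighbours that moved the same way. For each gene the 30 nearest of the 9982 genes with a mean of at least 64 and a known position were taken on its chromosome, and their median log2 fold change was set against that of all such genes. SMAD2, SMAD7 and SMAD4 lie close together on chromosome 18 and are among each other's neighbours. The neighbours of SMAD2 and SMAD7 had medians of -0.94 in CD90+/CD133+ cells and -0.80 in CD90+/CD133- cells, with 21 of 30 called lower and 0 higher in each comparison. Around SMAD4 the medians were -0.92 in CD90+/CD133+ cells and -0.79 in CD90+/CD133- cells, with 20 of 30 lower and 0 higher. Over all 149 such genes of chromosome 18 the medians were -0.15 in CD90+/CD133+ cells and -0.06 in CD90+/CD133- cells, nearer to 0 than in that stretch. ACVR2B on chromosome 3 had neighbours at 0.65 in CD90+/CD133+ cells (19 of 30 called higher) and 0.65 in CD90+/CD133- cells (20 of 30). ACVR1 on chromosome 2 had neighbours at -0.66 in CD90+/CD133+ cells and -0.45 in CD90+/CD133- cells. Those of ACVR2A, on the same chromosome, were at -0.40 in CD90+/CD133+ cells (11 of 30 called lower, 2 higher). In CD90+/CD133- cells they were at -0.31 (8 lower, 3 higher). SMAD9 on chromosome 13 had neighbours at -0.52 in CD90+/CD133+ cells (16 of 30 called lower, 1 higher). In CD90+/CD133- cells these were at -0.29 (11 lower, 0 higher). BAMBI on chromosome 10 went against its neighbours, which were at 0.71 in CD90+/CD133+ cells and 0.85 in CD90+/CD133- cells, with 21 of 30 called higher each time. The neighbours of BMP4 were at 0.25 in CD90+/CD133+ cells and 0.37 in CD90+/CD133- cells, those of TGFBR2 at 0.28 in CD90+/CD133+ cells and 0.41 in CD90+/CD133- cells, those of SMAD6 at 0.11 in CD90+/CD133+ cells and 0.11 in CD90+/CD133- cells and those of ID2 at 0.17 in CD90+/CD133+ cells and 0.13 in CD90+/CD133- cells, far below the genes' own values. Of the 30 around BMP4, 9 were called higher in CD90+/CD133+ cells and 12 in CD90+/CD133- cells, and of those around TGFBR2, 11 in CD90+/CD133+ cells and 15 in CD90+/CD133- cells. Over all 353 such genes of chromosome 15, which holds SMAD6 and SMAD3, the medians were 0.27 in CD90+/CD133+ cells (128 called higher) and 0.28 in CD90+/CD133- cells (123 called higher). The neighbours of BMP2 were at -0.28 in CD90+/CD133+ cells and -0.29 in CD90+/CD133- cells, those of INHBA at -0.19 in CD90+/CD133+ cells and -0.26 in CD90+/CD133- cells and those of ID3 at -0.19 in CD90+/CD133+ cells and -0.13 in CD90+/CD133- cells. The part of position in these differences was not tested.

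**Figure D3:**
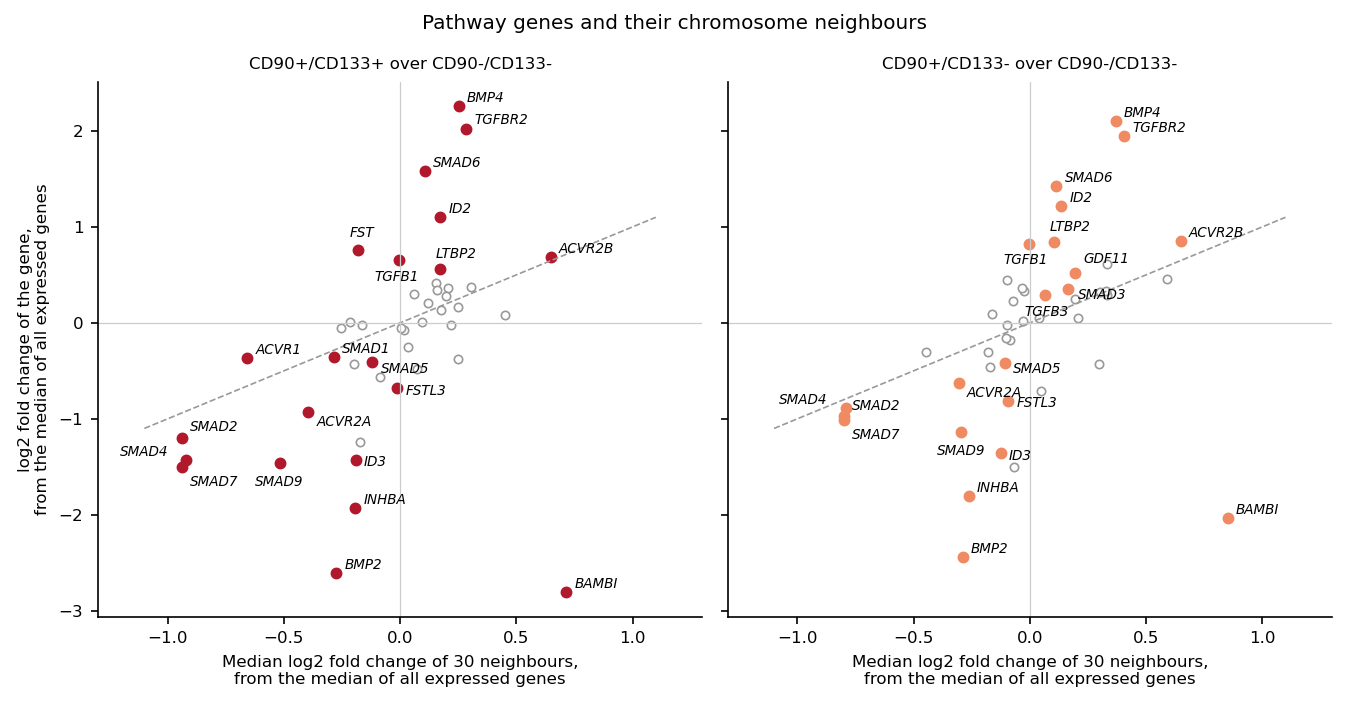
Log2 fold change of each pathway gene (y axes) against the median of its 30 nearest expressed neighbours on the chromosome (x axes), both as the distance from the median of all expressed genes, in CD90+/CD133+ cells (left) and CD90+/CD133- cells (right) over CD90-/CD133- cells. Filled points were called and the dashed line marks equal values. ACVR2B lies near the line in both panels. SMAD2, SMAD4 and SMAD7 lie at the left, near the line in CD90+/CD133- cells, with SMAD4 and SMAD7 further below it in CD90+/CD133+ cells, and BAMBI lies at the lower right with neighbours at 0.71 in CD90+/CD133+ cells and 0.85 in CD90+/CD133- cells.

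Other genes of the pathway were taken from lists of further ligands, receptors, traps, activators, regulators and targets. These lists hold 83 measured genes, were drawn up by name, and are described by counts. Together, 8 were higher (9.64%) and 9 lower (10.8%) in CD90+/CD133+ cells, against 9.57% higher and 10.8% lower over all genes, and 10 were higher (12%) and 8 lower (9.64%) in CD90+/CD133- cells, against 9.08% higher and 9.88% lower. With the replicate block 11 were higher (13.3%) and 16 lower (19.3%) in CD90+/CD133+ cells, against 13% higher and 15.2% lower over all genes. In CD90+/CD133- cells the block gave 12 higher (14.5%) and 10 lower (12%), against 12% higher and 13.6% lower. Most of these shares are near those of all genes, so the counts below describe the lists only. Of 16 further ligands, 1 was called, higher in each CD90+ fraction (2 with the block): BMP8B, a BMP family ligand, with log2 fold changes of 0.53 (SE 0.10, adjusted p = 0.00676) in CD90+/CD133+ cells and 0.77 (SE 0.085, adjusted p = 5.07e-04) in CD90+/CD133- cells. Of 7 further receptors and coreceptors, limma called 0 in either comparison, also with the replicate block and by the methods' t-test, and 1 was at an unadjusted p under 0.05 in each (RGMA in CD90+/CD133+ cells, NEO1 in CD90+/CD133- cells). Of 12 further traps, 1 was higher in CD90+/CD133+ cells (2 with the block) and 2 in CD90+/CD133- cells (2 with the block). CRIM1, a transmembrane BMP-binding protein, was higher, with log2 fold changes of 0.56 (SE 0.085, adjusted p = 0.00215) in CD90+/CD133+ cells and 0.67 (SE 0.15, adjusted p = 0.0148) in CD90+/CD133- cells. TWSG1, which acts with chordin on BMPs, rose in CD90+/CD133- cells, with a log2 fold change of 0.70 (SE 0.18, adjusted p = 0.0263), a call lost without 6 of the 10 arrays in turn (0.59 to 0.83, highest adjusted p = 0.0642). In CD90+/CD133+ cells it was 0.56 (SE 0.19, adjusted p = 0.0744), a difference called once the replicate number was a block (adjusted p = 0.0197).

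Latent TGF-beta is released by integrins and proteases. Of 10 genes for latency and activation, 3 were higher (30%) and 1 lower (10%) in CD90+/CD133+ cells, against 9.57% higher and 10.8% lower over all genes. In CD90+/CD133- cells 2 were higher and 2 lower (20% each), against 9.08% higher and 9.88% lower. With the block 4 were higher and 1 lower in CD90+/CD133+ cells, and 3 higher and 2 lower in CD90+/CD133- cells. Over all genes the block gave 13% higher and 15.2% lower in CD90+/CD133+ cells, and 12% higher and 13.6% lower in CD90+/CD133- cells. ITGB8, the beta subunit of an integrin that activates latent TGF-beta, had 1138, 959, 1092, 1195 and 1989 on the CD90+/CD133+ arrays, 816, 894, 1779, 1249 and 1550.4 on the CD90+/CD133- arrays and 302, 507, 655, 638 and 739.6 on the CD90-/CD133- arrays. All CD90+ arrays were above the CD90-/CD133- arrays, with log2 fold changes of 1.18 (SE 0.28, adjusted p = 0.0192) in CD90+/CD133+ cells and 1.15 (SE 0.31, adjusted p = 0.033) in CD90+/CD133- cells. The call in CD90+/CD133- cells was lost without 6 of the 10 arrays in turn (0.93 to 1.29, highest adjusted p = 0.0753). ITGAV, the alpha subunit of that integrin, was lower, with log2 fold changes of -0.60 (SE 0.11, adjusted p = 0.0047) in CD90+/CD133+ cells and -0.55 (SE 0.14, adjusted p = 0.028) in CD90+/CD133- cells. The call in CD90+/CD133- cells was lost without 4 of the 10 arrays in turn (-0.62 to -0.44, highest adjusted p = 0.0686). NRROS, which anchors latent TGF-beta and is known from myeloid cells, was higher, with log2 fold changes of 0.77 (SE 0.18, adjusted p = 0.0175) in CD90+/CD133+ cells and 1.16 (SE 0.18, adjusted p = 0.0029) in CD90+/CD133- cells. Its values were dim. CD14, a myeloid marker, was also higher in both fractions, while the other 3 leukocyte markers measured were not called. Among these, PTPRC and MS4A1 were at the floor throughout. The part of these markers was not tested. BMP1, a protease that acts on procollagens and on chordin, was lower in CD90+/CD133- cells, with a log2 fold change of -0.60 (SE 0.17, adjusted p = 0.0395), a call lost without 8 of the 10 arrays in turn (-0.67 to -0.51, highest adjusted p = 0.0851).

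Of 19 intracellular regulators, 3 were higher and 3 lower (15.8% each) in CD90+/CD133+ cells, against 9.57% higher and 10.8% lower over all genes. In CD90+/CD133- cells 5 were higher (26.3%) and 3 lower (15.8%), against 9.08% higher and 9.88% lower. With the block 5 were lower in CD90+/CD133+ cells, and the other counts were equal. The block shares over all genes were 13% higher and 15.2% lower in CD90+/CD133+ cells, and 12% higher and 13.6% lower in CD90+/CD133- cells. DAB2, an adaptor that links receptors to SMADs, was at the floor on 4 CD90+/CD133+ and 3 CD90+/CD133- arrays, and at 24.2 to 31.8 in CD90-/CD133- cells. It was called lower, with log2 fold changes of -0.81 (SE 0.09, adjusted p = 4.52e-04) in CD90+/CD133+ cells and -0.81 (SE 0.082, adjusted p = 3.48e-04) in CD90+/CD133- cells, sizes that depend on the floor. With values under 64 set to 64 the log2 fold change was 0 in both CD90+ fractions. USP9X, a deubiquitinase of SMAD4, was higher, with log2 fold changes of 0.45 (SE 0.075, adjusted p = 0.00352) in CD90+/CD133+ cells and 0.73 (SE 0.099, adjusted p = 0.00145) in CD90+/CD133- cells. FKBP1A, which holds type I receptors inactive, was lower, with log2 fold changes of -0.42 (SE 0.10, adjusted p = 0.0176) in CD90+/CD133+ cells and -0.59 (SE 0.11, adjusted p = 0.00703) in CD90+/CD133- cells.

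Of 14 TGF-beta targets, 4 (28.6%) were lower in CD90+/CD133+ cells and 2 (14.3%) in CD90+/CD133- cells, against 10.8% and 9.88% lower over all genes in those comparisons. With the replicate block the counts were 7 (50%) and 4 (28.6%), against 15.2% and 13.6% lower over all genes. The 14 targets had median log2 fold changes of -0.32 in CD90+/CD133+ cells and -0.27 in CD90+/CD133- cells, against 0 over all genes. Limma called 0 of these 14 higher in either fraction, and 0 were higher at an unadjusted p under 0.05 or by the methods' t-test. This holds for the list only, since each gene stood in 1 list. PMEPA1, counted as a regulator, was at 2234 or more in both CD90+ fractions and at most 2206 in CD90-/CD133- cells. PMEPA1 was higher at an unadjusted limma p under 0.05 in both comparisons. After adjustment it was called in at least 1 of them, either with or without the replicate block. THBS1, counted in the list for latency and activation, was higher in the CD90+ array of every same-numbered pair. With the replicate block THBS1 was called higher in CD90+/CD133+ cells. TGFBI, a matrix protein named for its induction by TGF-beta, had 50.5, 156, 95.2, 74.7 and 126 on the CD90+/CD133+ arrays, 57.0, 114, 276, 118 and 291 on the CD90+/CD133- arrays and 3158, 4103, 1713, 4576 and 2279 on the CD90-/CD133- arrays. Its highest CD90+ array was far below its lowest CD90-/CD133- array. TGFBI fell, with log2 fold changes of -4.99 (SE 0.38, adjusted p = 6.41e-05) in CD90+/CD133+ cells and -4.37 (SE 0.50, adjusted p = 6.21e-04) in CD90+/CD133- cells, which is 31.9-fold in CD90+/CD133+ cells and 20.6-fold in CD90+/CD133- cells. COL4A1, a basement membrane collagen, had 294, 267, 277, 249.95 and 322 on the CD90+/CD133+ arrays, 249, 225, 315, 276 and 280.4 on the CD90+/CD133- arrays and 818, 666, 554, 769 and 805 on the CD90-/CD133- arrays, and it fell, with log2 fold changes of -1.35 (SE 0.12, adjusted p = 1.39e-04) in CD90+/CD133+ cells and -1.42 (SE 0.13, adjusted p = 2.23e-04) in CD90+/CD133- cells. SNAI2, a transcription factor of epithelial-mesenchymal transition, was lower in CD90+/CD133+ cells, with a log2 fold change of -1.52 (SE 0.28, adjusted p = 0.00551), and in CD90+/CD133- cells the difference was -0.64 (SE 0.39, adjusted p = 0.345). Of 5 BMP targets beside the ID genes, 1 (20%) was lower in each fraction, against 10.8% of all genes in CD90+/CD133+ cells and 9.88% in CD90+/CD133- cells. With the replicate block 3 (60%) were lower in CD90+/CD133+ cells and 1 (20%) in CD90+/CD133- cells. Over all genes the block gave 15.2% lower in CD90+/CD133+ cells and 13.6% in CD90+/CD133- cells. DLX5, a homeobox factor, was lower, with log2 fold changes of -1.04 (SE 0.21, adjusted p = 0.00877) in CD90+/CD133+ cells and -0.77 (SE 0.21, adjusted p = 0.0368) in CD90+/CD133- cells, and the call in CD90+/CD133- cells was lost without 9 of the 10 arrays in turn (-0.93 to -0.62, highest adjusted p = 0.0814). In CD90+/CD133+ against CD90+/CD133- cells, limma called 0 of the 83 genes of these lists, with or without the block, as did the methods' t-test, and 10 were at an unadjusted p under 0.05.

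**Figure D4:**
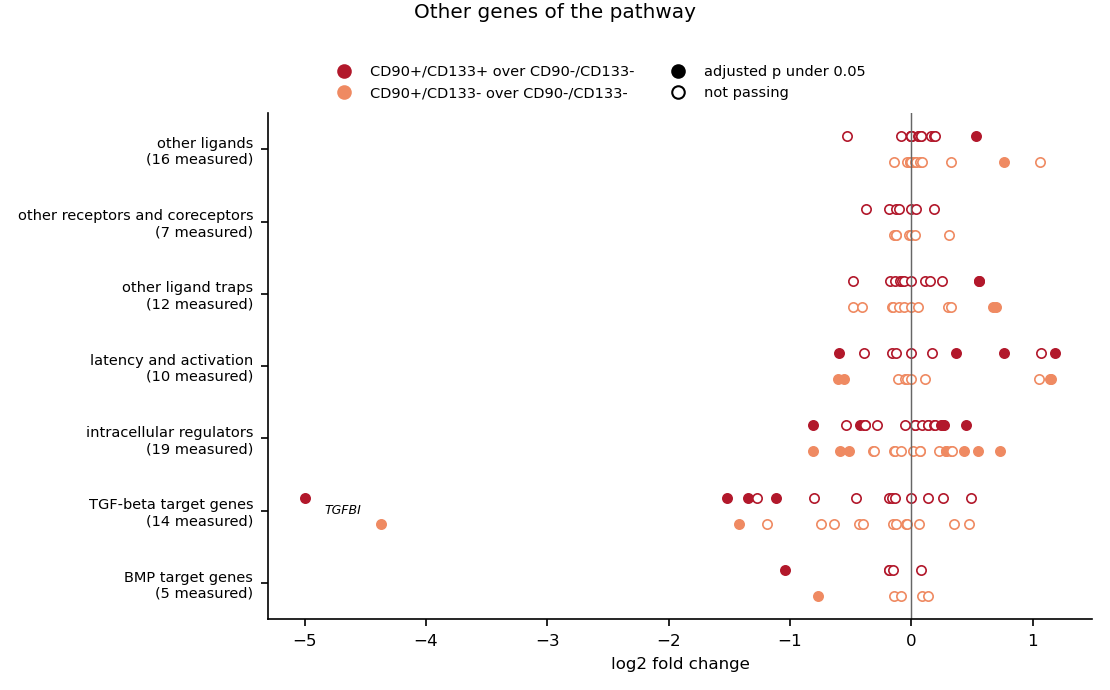
Log2 fold change (x axis) of the genes of 7 further pathway lists (y axis, with the number measured), in CD90+/CD133+ cells (dark red) and CD90+/CD133- cells (orange) over CD90-/CD133- cells. Each point is a gene and filled points passed an adjusted p under 0.05. TGFBI stands alone at the left, at -4.99 in CD90+/CD133+ cells and -4.37 in CD90+/CD133- cells. No gene placed in the target lists is filled to the right of 0.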

How the data were processed

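RNA of sorted PEO1 cells had been hybridised, as biotin-labelled cRNA, to Human Genome U133 Plus 2.0 arrays, 1 for each of 5 replicates of 3 fractions. What the authors deposited is 1 linear intensity for each probe set and array, normalised between arrays by the cross-correlation method. How probes were summarised is not given in the sources used here. Intensities had a minimum of 5 on all 15 arrays, the median of an array was 29.4 to 32.4, and 32.7% to 34.5% of probe sets were under 16. No arrays were identical (highest correlation 0.997), and no sample column was left unmapped. The number of arrays limits the precision, and since the sources do not say how the cultures of each replicate were kept apart, p-values measure only the spread between these samples.

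Of 54675 probe sets, 41091 named 1 gene in the platform annotation, 1801 named several, 11777 were unlisted, and 62 were controls, most of them among the unlisted. Values under 16 were set to 16, log2 was taken, and each gene was read from the probe set with the highest mean over all arrays (19775 genes). Each pair of fractions was fitted with limma 3.58.1 in R 4.3.3 (lmFit, eBayes), with Benjamini-Hochberg adjustment over all genes, and the fitting steps were tested on simulated data. Groups were taken from the sample labels.

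Same-numbered samples share a code in the labels, and the deviations of each such pair from the group means correlated at 0.21 to 0.77 (CD90+/CD133+ with CD90-/CD133- arrays), 0.20 to 0.79 (CD90+/CD133- with CD90-/CD133- arrays) and 0.37 to 0.85 (CD90+/CD133+ with CD90+/CD133- arrays). Arrays with different numbers correlated at -0.63 to 0.23 (mean -0.11), -0.56 to 0.19 (mean -0.10) and -0.64 to 0.38 (mean -0.12). The ranges of same and different numbers overlapped in the first and last of these sets. Replicate 3 was the weakest same-numbered pair in each set. The numbers were therefore taken to mark pairs. The main fits hold no replicate block, because the methods use none, so their SE and adjusted p ignore this pairing. The block was kept as an alternative. Codes of replicates 4 and 5 share a number, which a further alternative took as 1 block.

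Every listed gene was accounted for, with array values for those called in any comparison with or without the block, and at most 3 called genes of each other list, those that changed most, were named per comparison. The listed genes and all other lists were chosen with earlier results of these data known. Alternatives were other normalisations, floors, probe set rules, variance models, fits of all 3 fractions together, arrays left out, a t-test and the 1.5-fold ratio of the methods. The t-test is called the methods' because their general statistics name it, but its use and adjustment on the arrays were added here. Alternatives for named genes of the other lists were added after seeing the data. No column of the authors' own comparisons was used.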

Additional observations from a re-analysis of the deposited data

Results flagged for a closer look

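In each fraction of 5 arrays, the gap between the most extreme array and its nearest neighbour was divided by the range of the fraction, and 10 of 129 gene and fraction groups exceeded Dixon's critical value of 0.71. Chance alone passes that value in about 1 of 20 groups. FST had 150.3 on CD90+/CD133+ replicate 1 against 68.1 to 79.1 on the other arrays of that fraction (ratio 0.811), and INHBB had its lowest value there, 2682.7 against 4227.2 to 4817.6 (ratio 0.777). BMPR1B had 16.1 on the same array and 16 on the others (ratio 1.000), a gap next to the floor. On CD90+/CD133- replicate 5, ID4 had 1122.3 against 500.1 to 544.0 (ratio 0.896), GDF15 had 516.3 against 20.7 to 39.4 (ratio 0.799), and TGFB2 had 94.4 against 49.0 to 59.1 (ratio 0.714). GDF15 was also high on CD90-/CD133- replicate 5, with 143.2 against 23.1 to 28.9 (ratio 0.878). CHRD was low on CD90-/CD133- replicate 4, with 21.6 against 27.7 or more on the others (ratio 0.749). INHA stayed near the floor in both CD90+ fractions, with 16.2 on CD90+/CD133+ replicate 3 and 16 on the others (ratio 1.000), and 17.1 on CD90+/CD133- replicate 3 against 16 to 16.2 (ratio 0.819). Of the 10 groups, 3 lay on CD90+/CD133+ replicate 1 and 3 on CD90+/CD133- replicate 5, and of these genes only FST was called, in CD90+/CD133+ cells, and INHBB with the replicate block.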

How the results depend on the processing

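With all arrays, 8 genes of the list were higher and 13 lower in CD90+/CD133+ cells than in CD90-/CD133- cells, and 10 were higher and 11 lower in CD90+/CD133- cells. With the replicate block the counts were 11 higher and 15 lower in CD90+/CD133+ cells and 10 higher and 14 lower in CD90+/CD133- cells, and beyond the genes whose block value is given above, the block changed no call in the list. With 1 array or 1 replicate number left out, the counts in CD90+/CD133+ cells spanned 5 to 8 higher and 9 to 13 lower, and those in CD90+/CD133- cells 4 to 10 higher and 6 to 13 lower. The 5 higher genes in CD90+/CD133+ cells came without CD90-/CD133- replicate 1, replicate 2 or replicate 4. In CD90+/CD133- cells, 6 were higher without replicate 2 of either fraction or without CD90+/CD133- replicate 4, and 4 were higher without replicate 2 or replicate 4, where 7 and 6 were lower. With all 3 fractions in 1 fit and the replicate block, 18 were lower in CD90+/CD133- cells. In CD90+/CD133+ against CD90+/CD133- cells, 0 were called with any array left out, 1 was lower with all 3 fractions in 1 fit, 2 with the block added, and 2 by the methods' 1.5-fold ratio with no test. The cause of these shifts was not tested, except that fits with arrays left out hold fewer samples.

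Among single genes, setting values under 64 to 64, which leaves dim genes little range, ended the calls of TGFB1, FSTL3 and SMAD9 in both CD90+ fractions, TGFB3 in CD90+/CD133- cells and FST in CD90+/CD133+ cells. Averaging all probe sets of a gene ended those of GDF11 and SMAD3 in CD90+/CD133- cells and FST in CD90+/CD133+ cells. With replicates 4 and 5 as 1 block, TGFB3 and ID3 in CD90+/CD133- cells, SMAD1 and SMAD5 in CD90+/CD133+ cells and LTBP2 in both were not called. With all 3 fractions in 1 fit, TGFB3 and SMAD3 in CD90+/CD133- cells and LTBP2 and SMAD1 in CD90+/CD133+ cells were not called. No called gene changed direction under any setting run, and no setting moved the median of all genes by over 0.1. Signal over background limits INHA, BMPR1B, GREM1 and CHRD, at or near the floor on most arrays.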
